A study of Mus musculus with 157 samples.

Results

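Cd40, Cd80, Cd86, Icosl, Cd69, Cd83, Tnfrsf13b, Tnfrsf13c and Tnfrsf17 encode surface molecules through which B cells receive help from T cells, show their activation state and respond to the survival factors BAFF and APRIL. These 9 of the 19600 genes in the deposited read counts were chosen by gene symbol. The analysis describes the level of each mRNA among the ribosome-bound mRNAs of B cells without and with DNA damage, and where along a polysome gradient it lay. Splenic B cells of C57BL/6Babr mice, aged 8 to 12 weeks per the methods, were purified with a B cell isolation kit and activated with lipopolysaccharide (LPS) at 10 µg/ml in all 3 groups. The LPS cells had 48 h of LPS. The LPS+ET cells had 48 h of LPS and then etoposide, a topoisomerase II inhibitor that leaves DNA double-strand breaks, at 20 µM for 4 h. The LPS+ET+KU cells had 47 h of LPS, 1 h with KU55933 (10 µM), an inhibitor of the kinase ATM, and then the same etoposide treatment. By these labels the etoposide-treated cells were in culture for longer than the LPS cells, so that time in culture and etoposide cannot be told apart, and no group had KU55933 alone.

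Cytoplasmic extracts, made after 3 min of cycloheximide at 100 µg/ml, were separated on sucrose gradients, and each of fractions 4 to 16 gave a 3′ end sequencing library. Monosomes were in fractions 4 to 7, light polysomes in 8 to 10 and heavy polysomes in 11 to 16. There were 12 gradients, 4 per treatment, and each is named here by its treatment and a code in its column names (LUL15 to LUL18). The column names do not say what this code stands for, and reading it as a library pool is an inference. It is called the pool here. The methods call them biological replicates, and no source used here says whether these were separate mice or cultures, so p-values measure the spread between these gradients only. Gradient totals ranged from 6404957 to 21449781 counts, and 12 of the 156 fraction libraries held fewer than 100000 counts. The LPS+ET gradient of pool LUL16 stood apart. It had the lowest total, 4 of its heavy polysome libraries were below 100000 counts, and heavy polysomes gave 30.42% of its counts compared with 60.55 to 68.22% in the other LPS+ET gradients. Each fraction entered library preparation at the same RNA concentration, so these totals do not measure the mRNA in a fraction. The p53 target Cdkn1a, read as a check of the etoposide labels, averaged 28.35 CPM in LPS cells and rose to 705.4 CPM with etoposide and 647.7 CPM with etoposide and inhibitor, where CPM are counts scaled by TMM to the same library total. Mdm2, read for the same check, averaged 77.74, 409.5 and 210.3 CPM in LPS, LPS+ET and LPS+ET+KU, and Ccng1 averaged 61.11, 623.9 and 365 CPM.

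CD40 is the receptor for CD40 ligand on activated T cells, and its signal drives B-cell proliferation, germinal centre formation and class switching. CD80 and CD86 are the B7 ligands of CD28 and CTLA-4, and ICOSL is the ligand of ICOS, so these molecules pass signals from the B cell to the T cell. CD69 holds back lymphocyte egress by acting on the sphingosine 1-phosphate receptor, and CD83 stabilises MHC class II and CD86 at the surface. Tnfrsf13c encodes the BAFF receptor, which keeps mature B cells alive. Tnfrsf13b encodes TACI, which binds BAFF and APRIL and promotes class switching and plasma cell formation. Tnfrsf17 encodes BCMA, which is typical of plasma cells.

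The libraries counted mRNA at its 3′ end, so the last 30 bases before the main counted poly(A) site of each mRNA are shown to identify what was measured, with the poly(A) signal AATAAA or its variant ATTAAA in capitals. They were read from the GRCm38 assembly on the strand of the gene. The Tnfrsf13b and Cd69 stretches end 1 base before the site, and the others end at it.
Cd40: ttcttgAATAAAagacacactcaaccttta
Cd80: atattaAATAAAaagagagtattgagcaaa
Cd86: gtggatttcAATAAAgttttcttgaatttt
Icosl: aacaagggAATAAAtgtaagatgtgctttc
Cd69: tatgtgaaAATAAAagaatagataaatggt
Cd83: ctttcatgctATTAAAagaatgcatgtgaa
Tnfrsf13b: AATAAAactgttttgctgcagcttttacaa
Tnfrsf13c: tctgAATAAAaaaaggctaaggggaagaca
Tnfrsf17: caaccaagaatacagttttttgtcctttaa

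These stretches lie at chr2:165071613-165071642 on the plus strand (Cd40), chr16:38486904-38486933 on the plus strand (Cd80), chr16:36603875-36603904 on the minus strand (Cd86), chr10:78079496-78079525 on the plus strand (Icosl) and chr6:129267325-129267354 on the minus strand (Cd69). The others lie at chr13:43803103-43803132 on the plus strand (Cd83), chr11:61149337-61149366 on the plus strand (Tnfrsf13b), chr15:82221747-82221776 on the minus strand (Tnfrsf13c) and chr16:11320045-11320074 on the plus strand (Tnfrsf17). By GENCODE M21, 8 of the counted sites are in the 3′ UTR of their gene and the Cd69 site is 1 base beyond the annotated end. No other annotated gene overlaps any of the sites on either strand. In 7 genes the signal was AATAAA, which 64.6% of the 6935 matched genes held within 40 bases of their site. Cd83 held only the ATTAAA variant (15.43% of genes), and neither was found for Tnfrsf17. Cd40, Cd80 and Cd86 had more than 1 counted site, and the sites shown carried 76.2%, 82.1% and 63.5% of their counts. The AU-rich pentamer ATTTA, searched on the transcribed strand in the 250 bases before the site, occurred 2 times in Cd40, once in Tnfrsf13c and in none of the other 7 genes, while 34.72% of all such windows held it. Over the 3′ UTR up to the site it occurred 3 times in Cd40, once in Icosl and not in Cd80, Cd86 or Tnfrsf17. Cd69, Cd83, Tnfrsf13b and Tnfrsf13c held 2 each, and the median over the matched genes was 1.

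Because each mRNA is counted once at its end, levels could be compared between genes without a length correction. In LPS cells Tnfrsf13c and Tnfrsf13b were the most abundant of the set on ribosomes, while Tnfrsf17, the other BAFF receptor family gene, was nearly absent from the counts. Tnfrsf13c stood at 517.6 ± 55.73 CPM (SD, n = 4) and Tnfrsf13b at 514.3 ± 54.85 CPM, above 97.57% and 97.55% of the 12755 genes tested, and the gradients of these genes overlapped. Cd83 followed at 257.2 ± 19.15 CPM, Cd40 at 139.4 ± 8.07 CPM and Cd69 at 66.76 ± 6.72 CPM, each apart from its neighbours in the order. Icosl at 35.73 ± 9.65 CPM and Cd86 at 27.52 ± 4.20 CPM overlapped. Cd80 was the lowest of the 8 genes tested at 3.34 ± 0.87 CPM, from 167 counts in the 4 LPS gradients together. Tnfrsf17 had 5 counts over the LPS gradients, 21 over the LPS+ET gradients and 1 over the LPS+ET+KU gradients, of which 12 came from the LPS+ET gradient of pool LUL17. It did not pass the filter on low counts, so 8 of the 9 genes were tested, and no fold change is given for it.

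**Figure D1:**
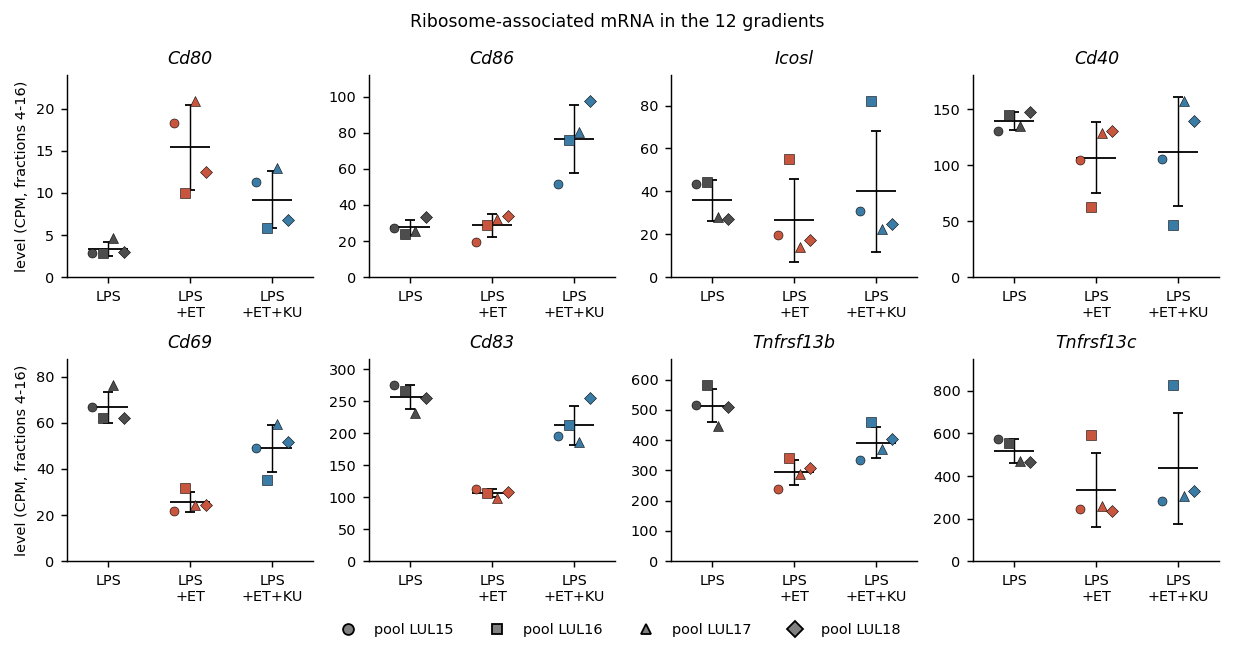
Ribosome-associated mRNA of the 8 genes with enough counts, in CPM on linear axes that start at 0, as 1 point per gradient (shape gives the pool) with the mean and SD of each treatment (n = 4). Cd80 was higher in every etoposide-treated gradient than in the LPS gradients, Cd69 and Cd83 were lower in every LPS+ET gradient than in any LPS gradient, and Icosl and Tnfrsf13c each have a pool LUL16 point far above the others in both etoposide-treated groups.

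The etoposide contrast, of LPS+ET with LPS, asks whether ribosome association changed after DNA damage. Cd80 rose in LPS+ET while Cd69, Cd83 and Tnfrsf13b fell. Here and below, levels are relative to other mRNAs, so a change of all ribosome-bound mRNA together would not show in them. The 13 fractions of a gradient were added up and tested by edgeR's quasi-likelihood test, with a call at an adjusted p (Benjamini-Hochberg, over all genes tested) under 0.01. Such a sum weights each fraction by the depth of its library. Treatment was the only term, and fits that also pair gradients by pool are named as having the pool as a block. In this contrast 12.7% of the 12755 genes were called, 7.88% as higher and 4.81% as lower. Of the 8 genes of the set, 1 was called higher and 3 lower. On the log2 scale the 8 genes had a median change of -0.54, compared with 0.03 over all genes and -0.61 over 8 B cell markers. These shares describe the set and are not a test of it. Bulk libraries cannot tell fewer cells that carry an mRNA from less of it per cell.

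Cd80, the B7-1 ligand, was read at 2.88, 2.84, 4.64 and 2.98 CPM in the LPS gradients of pools LUL15 to LUL18 and at 18.26, 10.02, 20.93 and 12.47 CPM in those of LPS+ET. The groups did not overlap. Its log2 fold change was 2.23 ± 0.32 (SE), a 4.68-fold rise (adjusted p = 0.000264, edgeR). Cd86, its closest relative, overlapped between the groups, with 27.26, 23.87, 25.48 and 33.46 CPM in LPS and 19.66, 29.11, 32.32 and 33.9 CPM in LPS+ET. Its log2 fold change was 0.06 ± 0.22 (adjusted p = 0.877, edgeR).

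Cd83 went from 275.7, 266.9, 231.6 and 254.6 CPM in LPS to 113.4, 106.7, 98.48 and 107.7 CPM in LPS+ET, and Cd69 from 66.61, 62.17, 76.32 and 61.96 CPM to 21.85, 31.77, 24.29 and 24.24 CPM. In both genes the highest LPS+ET gradient lay below the lowest LPS gradient. The log2 fold changes were -1.27 ± 0.15 for Cd83 (adjusted p = 6.2e-05) and -1.39 ± 0.19 for Cd69 (adjusted p = 0.000155), by edgeR. The calls for Cd80, Cd83 and Cd69 were made in all 8 fits that left out 1 gradient of the contrast.

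Tnfrsf13b fell from 517.3, 582.5, 448.4 and 509.2 CPM to 239.9, 340.1, 288.6 and 307.5 CPM, again without overlap (log2 fold change -0.81 ± 0.17, adjusted p = 0.00363, edgeR). This call was weaker. It was lost in 6 of the 8 fits that left out 1 gradient, namely all but those without LPS LUL17 or LPS+ET LUL16, with an adjusted p of at most 0.0141. Tnfrsf13c, the BAFF receptor, went from 574.9, 555.9, 472.9 and 466.9 CPM to 247.1, 594.9, 257.8 and 234.2 CPM. The LPS+ET value of pool LUL16 was above all LPS values and the other LPS+ET values were below them. With all 12 gradients its log2 fold change was -0.64 ± 0.37 (adjusted p = 0.256, edgeR). With the pool as a block it was -0.79 ± 0.21 (adjusted p = 0.00811), and without the 3 gradients of pool LUL16 it was -1.04 ± 0.15 (adjusted p = 0.000557).

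Icosl had the same layout, with 43.59, 44.55, 27.86 and 26.92 CPM in LPS and 19.43, 55.09, 14.13 and 17.12 CPM in LPS+ET, and a log2 fold change of -0.45 ± 0.48 (adjusted p = 0.559, edgeR). Without pool LUL16 it was -0.96 ± 0.23 (adjusted p = 0.00988). Cd40 was at 130.5, 145.1, 134.8 and 147.3 CPM in LPS and at 104.9, 62.14, 128.9 and 130.2 CPM in LPS+ET. Its groups did not overlap, by a margin of less than 1 CPM, and it was not called (log2 fold change -0.39 ± 0.32, adjusted p = 0.44, edgeR). Here the LUL16 gradient was the lowest and not the highest. Groups did not overlap for 5 of the 8 genes (Cd40, Cd69, Cd80, Cd83 and Tnfrsf13b), compared with 27.5% of all genes. With the pool as a block 26.7% of all genes were called, and 5 genes of the set, Tnfrsf13c being added.

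**Figure D2:**
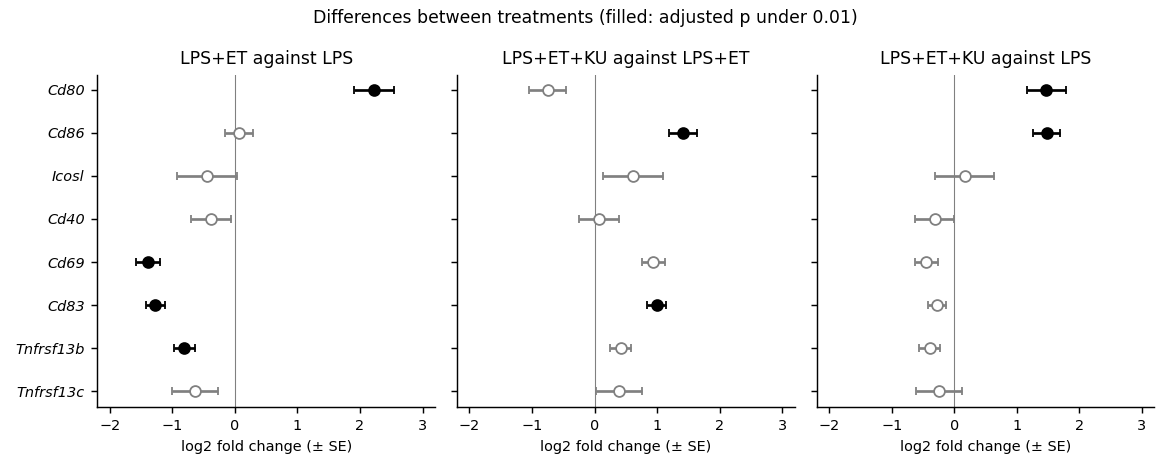
Log2 fold changes of ribosome-associated mRNA with their standard errors for the 8 genes in the 3 contrasts, from edgeR on 12 gradients, with filled symbols for an adjusted p under 0.01. Cd80 lies at 2.23 in the etoposide contrast and Cd86 at 1.41 in the inhibitor contrast, while Icosl, Tnfrsf13c and Cd40 were not called in any of the 3 contrasts.

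The inhibitor contrast, of LPS+ET+KU with LPS+ET, asks what changed when ATM was inhibited ahead of the damage. Cd86 and Cd83 rose, and no gene of the set was called lower. This contrast shares the LPS+ET gradients with the one above, so a value that is low in LPS+ET enters both. In all, 0.455% of genes were called, 0.22% as higher and 0.235% as lower. The median log2 fold change was 0.52 in the set, 0.04 over all genes and 0.23 over the 8 B cell markers.

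Cd86 was read at 51.82, 75.92, 80.54 and 97.68 CPM in LPS+ET+KU, and each value was above the highest LPS+ET value of 33.9 CPM. Its log2 fold change was 1.41 ± 0.22, a 2.66-fold rise (adjusted p = 0.00637, edgeR). Cd83 stood at 195.6, 213.8, 185.9 and 255.3 CPM, apart from the LPS+ET gradients as well (log2 fold change 1.00 ± 0.15, adjusted p = 0.00558, edgeR). Both calls were fragile in fits without the pool as a block, and both were made with it. With equal weight per fraction, or without the filter on low counts, Cd86 was called and Cd83 was not. In a fit of the 8 gradients compared, no gene of all 12357 tested was called (1603 at an unadjusted p under 0.05), and Cd86 had an adjusted p of 0.044. Leaving out 1 gradient kept the Cd86 call in 3 of 8 fits and the Cd83 call in 2 of 8, with adjusted p of at most 0.0302 and 0.0274. The Cd86 call was lost when pool LUL15, LUL17 or LUL18 was left out of LPS+ET or pool LUL17 or LUL18 out of LPS+ET+KU, and the Cd83 call was lost in each of these fits and without LPS+ET+KU LUL15. Over these fits the log2 fold change remained between 1.27 and 1.57 for Cd86 and between 0.90 and 1.06 for Cd83.

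Cd69 had 48.9, 35.33, 59.63 and 51.69 CPM in LPS+ET+KU, all above its LPS+ET values, and was not called (log2 fold change 0.94 ± 0.19, adjusted p = 0.0225, edgeR). It was called with the pool as a block (adjusted p = 0.00312), without LPS+ET LUL16 and without LPS+ET+KU LUL16 (adjusted p down to 0.00728). Cd80 had 11.27, 5.86, 12.91 and 6.85 CPM, lower than LPS+ET within each pool, but the groups overlapped (log2 fold change -0.75 ± 0.30, adjusted p = 0.23). The block moved this to an adjusted p of 0.0071. Cd69, Cd83 and Cd86 had groups without overlap, compared with 8.57% of all genes, and the block called 4 genes of the set against 6.36% of all genes. Tnfrsf13b (335.7, 458.8, 370.1 and 404.3 CPM) overlapped LPS+ET only at its lowest gradient (log2 fold change 0.42 ± 0.17, adjusted p = 0.231, edgeR). Cd40 (105.4, 46.32, 157.2 and 139.4 CPM), Icosl (30.79, 82.14, 22.24 and 25 CPM) and Tnfrsf13c (284.1, 827.6, 304.4 and 330.6 CPM) spread most, and in each the pool LUL16 gradient was the extreme one. Without pool LUL16, Cd69 was called (log2 fold change 1.19, adjusted p = 0.00186, edgeR) and Cd86 was not (1.42 ± 0.27, adjusted p = 0.0119).

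The combined contrast compared LPS+ET+KU with LPS, and Cd80 and Cd86 were higher in LPS+ET+KU. Of all genes 10.7% were called, 6.25% as higher and 4.42% as lower, and 2 genes of the set were called higher and 0 lower. The median log2 fold change was -0.26 in the set, 0.09 over all genes and -0.38 over the 8 B cell markers. The log2 fold change of Cd86 was 1.47 ± 0.22 (adjusted p = 0.000593, edgeR), which was called in all 8 fits that left out 1 gradient. Cd80 also had 1.47 ± 0.32 (adjusted p = 0.00531), and its call was lost in 5 of those 8 fits, without LPS LUL15, LUL16 or LUL18 or LPS+ET+KU LUL15 or LUL17 (adjusted p of at most 0.021). Cd69 (-0.45 ± 0.18, adjusted p = 0.0922) and Cd83 (-0.27 ± 0.15, adjusted p = 0.204) were not called. The groups of Cd69, Cd80 and Cd86 did not overlap, compared with 26.4% of all genes. The block raised the share of all genes called to 28.1% and left the calls of the set at Cd80 and Cd86. Without pool LUL16, Tnfrsf13c was called lower as well (-0.73, adjusted p = 0.00538).

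Myeloid and dendritic cells also express Cd80, Cd83 and Cd86, so the markers of other cells were read beside them. The 12 myeloid and dendritic cell markers, all in the table, summed to 74.67 to 161 CPM, here without TMM scaling, in the LPS gradients, to 120.6 to 252.5 CPM in those of LPS+ET and to 121.8 to 201.6 CPM in those of LPS+ET+KU. Fcer1g was the most abundant of them, and Mpo was at 0 in the LPS gradients. None of the 10 tested was called in the etoposide contrast or in the inhibitor contrast, and Cd14 was called higher in the combined contrast, from 31 counts in the LPS gradients to 492. Their part in the rise of Cd80 and Cd86 was not tested. The 8 T cell markers in the table, of 10, summed to between 1.30 and 10.32 CPM, the 2 NK cell markers in the table, of 5, to at most 2.80 and the 3 erythroid and platelet markers, of 6, to at most 3.84. The 8 B cell markers summed to 31236 to 133225 CPM, with Igkc highest. Among them Cd22 fell in the etoposide contrast (log2 fold change -2.12 ± 0.40, adjusted p = 0.00171, edgeR). Of 7 plasma cell markers Sdc1, encoding syndecan-1, rose in LPS+ET (3.42 ± 0.32, adjusted p = 7.91e-06) and was lower again in the inhibitor contrast (-1.93 ± 0.29, adjusted p = 0.0057), and Cd38 fell in LPS+ET (-1.10 ± 0.25, adjusted p = 0.00571).

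The changes in the sum were also present in the gradient classes. In the etoposide contrast, Cd69, Cd80 and Cd83 were called in monosomes, in light polysomes and in heavy polysomes, and Tnfrsf13b in monosomes and light polysomes. Of all genes tested, 9.52% were called in monosomes, 10.6% in light and 9.69% in heavy polysomes. The log2 fold changes of Cd80 were 2.30 ± 0.46, 2.26 ± 0.44 and 2.32 ± 0.32 from monosomes to heavy polysomes, those of Cd83 were -1.37 ± 0.16, -1.29 ± 0.16 and -1.20 ± 0.24, and those of Cd69 were -1.47 ± 0.21, -1.66 ± 0.25 and -1.10 ± 0.22. In heavy polysomes Tnfrsf13b was not called (log2 fold change -0.81 ± 0.21, adjusted p = 0.0136, edgeR). The block added Cd40 and Tnfrsf13c in monosomes (6 called), Cd40, Icosl and Tnfrsf13c in light polysomes (7 called), and Tnfrsf13b in heavy polysomes (4 called), and with it 24.6%, 25% and 20.6% of all genes were called in the 3 classes. The Cd80 call in monosomes was lost in 7 of 8 fits without 1 gradient, all but the one without LPS+ET LUL16 (adjusted p of at most 0.0133), and in light polysomes without LPS LUL16 or LPS+ET LUL15 (at most 0.0117). Those of Tnfrsf13b were lost in monosomes without LPS LUL15, LUL16 or LUL18 or without LPS+ET LUL15, LUL17 or LUL18 (at most 0.0194), and in light polysomes without the same gradients other than LPS+ET LUL18 (at most 0.0199). That of Cd83 in heavy polysomes was lost without LPS LUL15 (0.0102). Tnfrsf13b was called in heavy polysomes without LPS+ET LUL16 (0.00785).

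In the inhibitor contrast, Cd86 was called in heavy polysomes (log2 fold change 1.47 ± 0.25, adjusted p = 0.0076, edgeR) and no gene of the set was called in monosomes or light polysomes. Of all genes, 0.213% were called in monosomes, 0.292% in light and 0.572% in heavy polysomes. The log2 fold change of Cd86 was 1.42 ± 0.30 in monosomes (adjusted p = 0.0358) and in light polysomes 1.38 ± 0.26 (adjusted p = 0.0217). Cd83 had 0.56 ± 0.15 in monosomes (adjusted p = 0.106), 0.88 ± 0.15 in light (adjusted p = 0.0161) and 1.17 ± 0.24 in heavy polysomes (adjusted p = 0.0202). Monosome libraries gave 28.45 to 34.03% of the counts in LPS+ET+KU gradients and 10.85 to 12.98% in LPS+ET gradients other than LUL16, which had 29%. Differences between classes were not tested here, other than through the heavy share below. With the block, Cd83 and Cd86 were called in monosomes, where 5.62% of all genes were, and Cd69, Cd83 and Cd86 in light and in heavy polysomes, where 5.35% and 3.27% were. The Cd86 call in heavy polysomes was made in 3 of 8 fits without 1 gradient and lost without the same 5 gradients as its call in the sum (adjusted p of at most 0.0318).

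The mRNAs of the set lay in different parts of the gradient. Each fraction library was scaled to CPM and the value in a fraction was expressed as a percent of the sum over the 13 fractions. This gives every fraction library the same weight, however much mRNA the fraction held. The percentages therefore place an mRNA relative to the others and are not portions of its molecules. In LPS, Cd69 lay lightest, with its highest share in fraction 7 (16.7 ± 0.75%, SD, n = 4) and 45.42% in monosomes together. Tnfrsf13c peaked sharply in fraction 10, the last of the light polysomes, with 15.86 ± 0.42%, 16.21 ± 3.14% and 17.76 ± 1.85% in the 3 treatments. Single gradients peaked in fraction 10 or 11. The share was 4.10 ± 1.35% in fraction 12 in LPS. TACI mRNA (Tnfrsf13b) was spread more evenly, with 10.51 to 10.85% in each of fractions 8 to 11 in LPS. Cd40 had its highest mean share in fraction 12 in all 3 treatments, with 13.82 ± 1.85%, 14.42 ± 5.10% and 12.33 ± 1.16%. Its single gradients peaked there in LPS, but in fractions 12, 11, 13 and 16 in LPS+ET+KU.

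**Figure D3:**
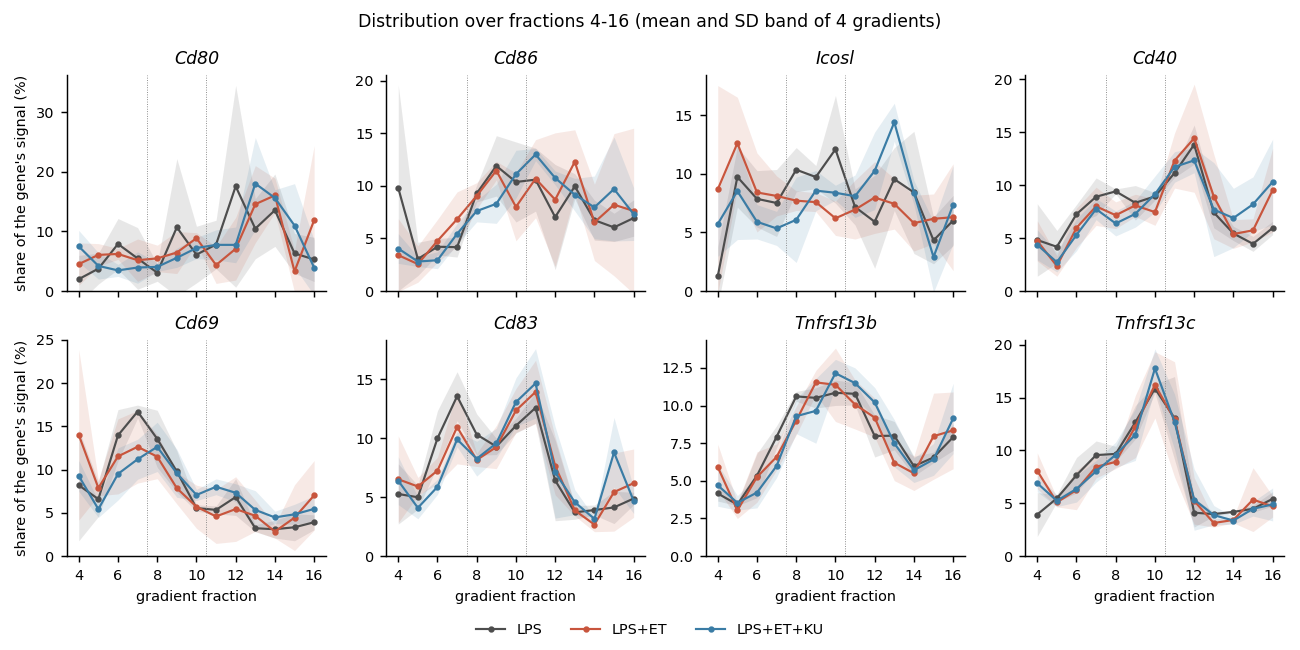
Distribution of the 8 mRNAs over fractions 4 to 16, as the percent of the gene's scaled counts in each fraction, with the mean of 4 gradients per treatment as a line, the SD as a band and dotted lines between monosomes, light and heavy polysomes. The mean of Tnfrsf13c peaks at fraction 10 in all treatments and that of Cd40 at fraction 12, and that of Cd69 peaks at fraction 7 in LPS cells, 4 with etoposide and 8 with etoposide and inhibitor. The Cd69 share in fraction 4 ran from 0 to 22.82% over the LPS+ET gradients, which peaked in fractions 4, 4, 7 and 4.

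Cd83 had 2 maxima. In LPS it held 13.55 ± 2.08% in fraction 7 and 12.57 ± 1.30% in fraction 11, with 9.29 ± 0.69% between them in fraction 9. In LPS+ET the values were 10.94 ± 3.13% and 13.91 ± 2.69%, and in LPS+ET+KU 9.89 ± 0.63% and 14.64 ± 2.94%. The mean share of Cd86 was highest in fraction 9 in LPS (11.89 ± 2.87%), in fraction 13 in LPS+ET (12.28 ± 3.04%) and in fraction 11 in LPS+ET+KU (12.97 ± 0.58%). Its single gradients did not share a peak, with maxima in fractions 4, 10, 9 and 4 in LPS cells, 13, 16, 9 and 11 with etoposide, and 15, 11, 10 and 11 with etoposide and inhibitor. Icosl had its highest mean share in fractions 10, 5 and 13 in the 3 treatments. The LPS gradients peaked in fractions 8, 5, 14 and 10 and those of LPS+ET in 4, 12, 5 and 5, and in LPS+ET+KU the peak was in fraction 13 in each of the 4 gradients (14.41 ± 1.62%). The mean of Cd80 peaked in fractions 12, 14 and 13, but its LPS gradients peaked in 9, 11, 12 and 14, its LPS profile rests on 167 counts and its SD in fraction 12 was 16.93 percentage points around a mean of 17.57%.

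The share of a gene's scaled counts in heavy polysomes was taken per gradient as 1 number for each profile. Over the 8000 genes that averaged at least 100 counts per gradient, the median heavy share was 55.16, 53.87 and 54.72% in the 3 treatments. In LPS, 7 of the 8 genes were below this median. Cd69 had 26.11, 26.06, 30.09 and 20.54% in the gradients of pools LUL15 to LUL18 (mean 25.7%), which placed it above only 8.29% of genes. Tnfrsf13c had 37.15, 29.65, 36.47 and 37.55% (mean 35.21%) and Cd83 had 38.46, 31.89, 35.44 and 36.51% (mean 35.58%), above 16.51% and 17.03% of genes. Icosl followed with 41.41%, Tnfrsf13b with 47.17%, Cd86 with 47.26% and Cd40 with 48.2%. Only Cd80 exceeded the median, with 61.01% on average and 48.49 to 83.15% over its gradients.

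**Figure D4:**
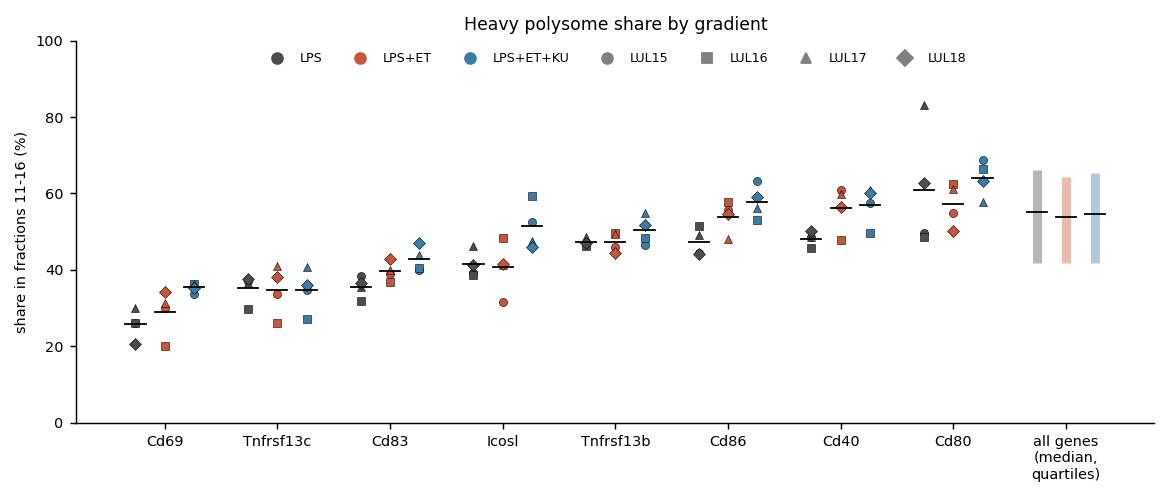
Heavy polysome share, in percent of a gene's scaled counts in fractions 11 to 16, as 1 point for each gradient of the 3 treatments with a line at their mean, and at the right the median and quartiles of the 8000 genes. Cd69, Tnfrsf13c and Cd83 lie below the median in every gradient, and Cd69 has means of 25.7, 28.95 and 35.39% in the 3 treatments, from LPS to LPS+ET+KU.

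In the etoposide and inhibitor contrasts no gene of the set was called for its heavy share. The heavy share was not tested in the combined contrast. A shift of all mRNAs together would not show in this share. The paper reports lower polysome assembly as a whole after etoposide. By limma on the log2 odds of the share (heavy polysomes against the other fractions), 0.325% of the 8000 genes were called in the etoposide contrast and 0% in the inhibitor contrast (26 and 0 genes, with 1656 and 689 at an unadjusted p under 0.05). The largest log2 odds differences in the set were 0.47 ± 0.22 for Cd40 in the first contrast (adjusted p = 0.235), from a mean of 48.2% to 56.27%, and 0.64 ± 0.25 for Icosl in the second (adjusted p = 0.471), from 40.65% to 51.44%. Cd69 had 30.11, 20.04, 31.3 and 34.32% in LPS+ET and 33.77, 36.23, 36.4 and 35.15% in LPS+ET+KU, which overlap (log2 odds difference 0.45 ± 0.25, adjusted p = 0.671, limma). Tnfrsf13c had means of 34.76% with etoposide and 34.65% with etoposide and inhibitor.

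A test of all fraction libraries together, which compares a model with fraction, treatment and their interaction with one of fraction alone, called 6 genes of the set in the etoposide contrast (Cd40, Cd69, Cd80, Cd83, Tnfrsf13b and Tnfrsf13c) and 3 in the inhibitor contrast (Cd69, Cd83 and Cd86). It called 31% and 8.01% of all genes. With the block it called Icosl as well in the first contrast and Cd80, Icosl and Tnfrsf13b in the second, among 41.7% and 18.3% of all genes. The test responds to level as well as to distribution and takes the libraries of a gradient as independent. Tested alone, the interaction of treatment and fraction called none of the 8 genes in either contrast, while 142 and 110 of all genes were called (edgeR).

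Within a treatment, heavy polysomes were compared with monosomes in the same gradients. Each class was scaled to its own total, so a gene called lower in heavy polysomes was lower there relative to other mRNAs. In LPS, 29.9% of genes were called lower in heavy polysomes than in monosomes and 29.5% higher, and 4 genes of the set were lower. They were Cd69 (log2 fold change -2.28 ± 0.12, adjusted p = 1.29e-16), Cd83 (-1.22 ± 0.12, adjusted p = 8.21e-11), Tnfrsf13c (-0.97 ± 0.12, adjusted p = 3.06e-08) and Icosl (-0.81 ± 0.15, adjusted p = 2.04e-05), by edgeR with the gradient as a block, and each was called in all 4 fits without 1 gradient. Their mean heavy and monosome shares in LPS were 25.7 and 45.42% for Cd69 and 35.58 and 33.78% for Cd83. Those of Tnfrsf13c were 35.21 and 26.61%, and those of Icosl 41.41 and 26.39%. In LPS+ET the same 4 genes were lower, among 18.4% of all genes called lower and 21.9% called higher, with -1.73 ± 0.24 for Cd69 (adjusted p = 1.43e-05) and -1.20 ± 0.27, -0.87 ± 0.21 and -0.75 ± 0.22 for Icosl, Cd83 and Tnfrsf13c. Only Cd69 was called in every fit without 1 LPS+ET gradient. The calls of Icosl and Cd83 were lost without LUL15 or LUL17 (adjusted p of at most 0.0173 and 0.0155), and that of Tnfrsf13c also without LUL18 (at most 0.0321).

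In LPS+ET+KU, 25.7% of genes were lower in heavy polysomes and 24.5% higher. Cd69 (-1.22 ± 0.16, adjusted p = 1.92e-06) and Tnfrsf13c (-0.63 ± 0.16, adjusted p = 0.00239) were lower and Cd86 (0.73 ± 0.17, adjusted p = 0.000737) was higher, by edgeR. The Cd86 and Tnfrsf13c calls were lost without the LUL15 gradient, with adjusted p of 0.0105 and 0.0419. Cd83 (-0.35 ± 0.17, adjusted p = 0.0833) and Icosl (-0.11 ± 0.23, adjusted p = 0.695) were not called here. Whether these ratios differ was asked in the etoposide and inhibitor contrasts by the tests of the heavy share and of the interaction. Neither test called a gene of the set, and LPS+ET+KU was not compared with LPS in this way.

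The coding sequences of the set are short. They run from 555 bases in Tnfrsf17 to 966 bases in Icosl, that is 185 to 322 codons, compared with a median of 1209 bases over the 6935 genes matched to a transcript. Across those genes, which are not independent replicates, the heavy share was higher at greater coding length (Spearman's rho 0.53, 0.46 and 0.52 in the 3 treatments). The shortest tested sequences of the set are those of Cd83 (588 bases), Cd69 (597) and Tnfrsf13c (600). Genes with over 450 and up to 600 coding bases had a median heavy share of 45.45% in LPS, with quartiles of 34.35% and 54.58%, so Cd83 and Tnfrsf13c lay just above the lower quartile of genes of their length and Cd69 below it. Genes with over 600 and up to 1000 coding bases had a median of 52.24% and quartiles of 42.13% and 60.75%. Tnfrsf13b (747 bases), Cd40 (780) and Cd86 (927) were within these quartiles, Icosl (966) was just below them and Cd80 (918) just above. The Cd80 share in LPS rests on 167 counts.

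**Figure D5:**
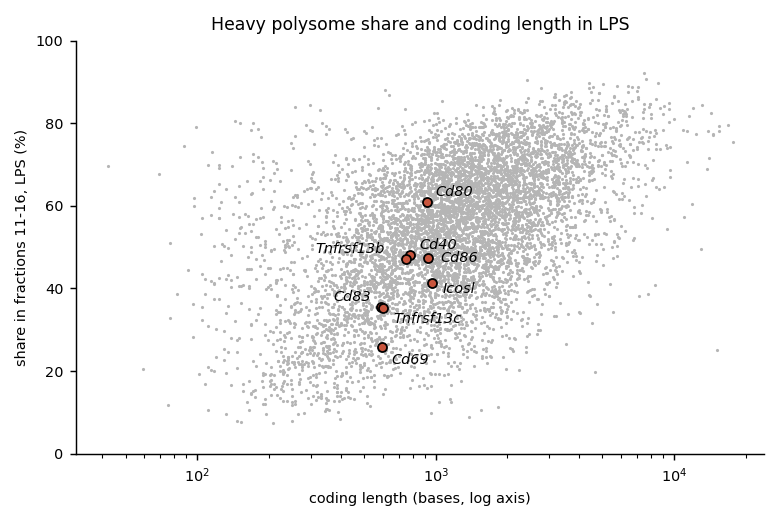
Mean heavy polysome share in LPS, in percent, against the coding length in bases on a log10 axis for 6935 genes in grey, with the 8 genes named. All 8 lie below the median length of 1209 bases, Cd69 is the lowest of the set at 25.7% and Cd80 the highest at 61.01%. The Cd80 value rests on 167 counts in LPS.

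The partners of these receptors were read from lists of gene symbols. Of 6 ligands and counter-receptors (Cd40lg, Cd28, Ctla4, Icos, Tnfsf13b and Tnfsf13), 4 were in the table and 3 were tested, and none was called in any of the 3 contrasts. Cd28, the T-cell receptor for CD80 and CD86, averaged 1.08 CPM in LPS cells, 1.504 CPM with etoposide and 2.65 CPM with etoposide and inhibitor, and Tnfsf13, which encodes APRIL, averaged 0.89, 1.67 and 0.88 CPM. Ctla4 was counted at 621.6 CPM in LPS, but at an intronic site far from its annotated 3′ ends, so that its value is uncertain.

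Downstream of CD40 and the BAFF receptor, TRAF3 holds the kinase NIK, encoded by Map3k14, for degradation until a receptor is engaged, and NIK then starts the non-canonical NF-kB pathway. Both fell in the etoposide contrast. Traf3 went from 38.34 ± 4.35 to 22.92 ± 1.34 CPM (log2 fold change -0.74 ± 0.15, adjusted p = 0.00327, edgeR) and Map3k14 from 50.41 ± 6.90 to 31.28 ± 4.81 CPM (-0.69 ± 0.16, adjusted p = 0.00769). These were the only 2 of the 14 tested genes of the TRAF and non-canonical NF-kB list that were called, close to the 12.7% of all genes called in this contrast. None was called in the inhibitor contrast, and Traf3 remained lower in the combined contrast (-0.77 ± 0.15, adjusted p = 0.00331). Nfkb2, which encodes the precursor processed by this pathway, had 0.51 ± 0.28 (adjusted p = 0.212) in the etoposide contrast. The list's median in that contrast was -0.04 on the log2 scale.

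Of 13 tested genes among other TNF receptors and ligands, 2 were called higher in the etoposide contrast and 0 lower, a share also near that of all genes. Tnfrsf18, which encodes the T-cell costimulatory receptor GITR, rose from 3.66 ± 0.86 to 28.68 ± 9.02 CPM (log2 fold change 2.96 ± 0.30, adjusted p = 1.59e-05, edgeR). Tnfsf4, encoding OX40 ligand, which antigen-presenting cells show to T cells, went from 8 counts in the 4 LPS gradients to 603 in the LPS+ET and 523 in the LPS+ET+KU gradients. In the combined contrast, Tnfrsf9, encoding 4-1BB, was also higher (1.77 ± 0.35, adjusted p = 0.00336). Of 11 tested genes of the B7, CD28 and SLAM families outside the set, 3 rose and 2 fell in the etoposide contrast, where 7.88% and 4.81% of all genes did. Cd274, encoding PD-L1, rose from 5.47 ± 1.99 to 14.52 ± 4.20 CPM (1.42 ± 0.35, adjusted p = 0.00949), Pdcd1, encoding its receptor PD-1, from 0.95 ± 0.13 to 3.17 ± 0.67 CPM (1.75 ± 0.43, adjusted p = 0.00971), and Cd276 from 17 counts in the LPS gradients to 435. The SLAM family receptors Slamf1 (273.8 ± 46.66 to 84.5 ± 8.53 CPM, -1.70 ± 0.17, adjusted p = 1.74e-05) and Slamf6 (11.78 ± 1.46 to 3.58 ± 1.82 CPM, -1.68 ± 0.31, adjusted p = 0.00168) fell. Tnfsf4 and Cd276 had few LPS counts and passed the filter on low counts through the etoposide-treated gradients. They could hardly have been called lower, which limits the comparison of these counts with the shares of all genes. Of both lists, none was called in the inhibitor contrast (edgeR).

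The genes most like each member were taken by Pearson's r of log2 CPM over the 12 gradients, among 7999 other genes. These gradients share pools and treatments, so r is given as a description. Cd80 was most like Stard3nl (0.97), Marcks (0.97) and Stam (0.96), and Cd86 most like Jak2 (0.95), Stat4 (0.93) and Slc38a9 (0.93). Cd83 was closest to Gypc (0.99), Scamp4 (0.97) and Lrrc33 (0.96), and Cd69 to Nkiras2 (0.96), Vps51 (0.93) and Ctdsp1 (0.92). For Tnfrsf13b the closest were Pip5k1c (0.97), Ndufaf3 (0.96) and Ict1 (0.96), and for Tnfrsf13c they were Gng2 (0.96), Tbl2 (0.96) and Pfkfb3 (0.96). Icosl was closest to Pdxp (0.99), Chd3 (0.97) and Dgcr6 (0.97), and Cd40 to Wbscr22 (0.94), BC003965 (0.94) and Azin1 (0.94).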

How the data were processed

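Ribosome-bound mRNA of mouse splenic B cells was measured by 3′ end sequencing of 156 gradient fractions (12 gradients of 13 fractions) and 1 further fraction 17 library. The authors reverse transcribed equal RNA concentrations, removed PCR duplicates by random bases, trimmed A tracts, mapped the reads to GRCm38 and summed them per Ensembl gene. The deposited values are raw counts, not normalized, of 19600 genes. The submitters' processing notes name TopHat2 2.0.12, TopHat, HTSeq and DESeq2 1.6.3 without a role. The labels give the gradient as 10 to 30% sucrose and the methods give another range.

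Columns carried treatment, fraction and pool: 79 matched 1 labelled sample and 78 (pools LUL16 and LUL18) matched treatment and fraction only. The fraction 17 library of pool LUL16 is labelled as replicate 2 only. If a pool holds 1 replicate, this makes the LUL16 gradients replicate 2 and settles LUL18 as well. The main tests between treatments do not pair gradients by pool, and the fits with the pool as a block do. Whether pools pair the gradients was read from correlations. Deviations of log2 CPM from treatment means correlated at r of 0.288 to 0.790 across genes in all 12 same-pool pairs of gradients and at -0.617 to 0.276 in the 36 pairs of different pool and treatment, so pools pair the gradients. This rests on the LUL code in the column names, and for LUL15 and LUL17 also on the replicate number in the titles. No source used here ties it to mice or dates.

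Sums of fractions were tested with edgeR 4.0.16 (TMM, default filter, quasi-likelihood, treatment as the only term, 12 gradients), heavy shares with limma 3.58.1 on log2 odds with 0.5 added to each class, for genes averaging at least 100 counts per gradient, and profiles with edgeR on single libraries. All p-values are two-sided and Benjamini-Hochberg adjusted over all genes tested, with a threshold of 0.01. On simulated LPS+ET against LPS data (11760 genes), the edgeR test of sums called 97% of 200 genes changed 3-fold and 1.02% of its calls were unchanged genes, while 11.95% of the calls of the profile test (9375 genes) were. The simulated gradients had the depths of the real ones but no effect shared within a pool. These rates need not hold for the real gradients or for changes under 3-fold. CPM use TMM-scaled totals, and sums over marker lists use plain totals. Alternatives were DESeq2 1.42.0, no filter, the pool as a block, only the 8 gradients compared, each gradient left out, equal weight per fraction and a threshold of 0.05. Leaving out pool LUL16 was chosen after seeing the data. The members and gene lists were chosen with earlier results of these data known. The genes named were the 9 members, of each list at most the 4 largest changes per contrast among those called in the etoposide or the inhibitor contrast, the highest gene of each marker list, and the 3 most alike genes of each member. Cd274, Cd14, Tnfrsf9, Nfkb2, Cd28, Tnfsf13 and Ctla4 fall outside this rule and were named after their values were seen. File coordinates count from 0 (of 19248 genes matched by identifier, 60.9% had start and end each 1 below the annotation) and were converted to count from 1. Software was R 4.3.3, numpy 2.4.6, pandas 2.3.3 and scipy 1.17.1. Cellular mRNA abundance was not analysed here, so changes in ribosome association and in abundance cannot be told apart.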

Additional observations from a re-analysis of the deposited data

Results flagged for a closer look

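Of 48 groups of 4 gradients checked (level and heavy share of 8 genes in 3 treatments), 6 had a gradient far from the other 3 by Dixon's test, and chance alone marks about 1 in 20 groups. Icosl reached 55.09 CPM in LPS+ET LUL16, compared with 14.13 to 19.43 CPM in the other LPS+ET gradients, and 82.14 CPM in LPS+ET+KU LUL16, compared with 22.24 to 30.79 CPM. Tnfrsf13c stood at 594.9 CPM in LPS+ET LUL16, compared with 234.2 to 257.8 CPM, and at 827.6 CPM in LPS+ET+KU LUL16, compared with 284.1 to 330.6 CPM. These 4 values belong to the pool LUL16 gradients, of which LPS+ET LUL16 had the lowest and LPS+ET+KU LUL16 the highest total count of the 12, and the part of depth or pool was not tested. The heavy polysome share of Tnfrsf13c was 29.65% in LPS LUL16, compared with 36.47 to 37.55% in the other LPS gradients. Cd80 was at 4.643 CPM in LPS LUL17, compared with 2.841 to 2.982 CPM in the others.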

How the results depend on the processing

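In ribosome-associated mRNA the calls in the etoposide contrast numbered 3 to 4 when 1 gradient was left out. In the inhibitor contrast they numbered 0 to 3 then, 1 without the filter on low counts and 1 with equal weight per fraction (Cd86 in both), 4 with the pool as a replicate block and 0 in a fit of only the 8 gradients compared. In the combined contrast they numbered 1 to 2 with 1 gradient left out, and 1 (Cd86) with only the 8 gradients or equal weights. For the etoposide contrast, leaving out 1 gradient gave 2 to 4 calls in each of monosomes, light and heavy polysomes, the block gave 7 in light polysomes, and heavy polysomes had 5 without pool LUL16 or at a threshold of 0.05. In the inhibitor contrast, monosomes had 2 calls by DESeq2, 2 with the block and 1 at 0.05, light polysomes 2, 3 and 2, and heavy polysomes 3, 3 and 3, with 0 in a fit of only 8 gradients, 2 without pool LUL16 and 0 to 1 with 1 gradient left out. Heavy polysomes against monosomes gave 1 call (Cd69) in each of the LPS+ET and LPS+ET+KU groups with no replicate block, and 4 to 5, 1 to 5 and 1 to 3 calls in LPS, LPS+ET and LPS+ET+KU with 1 gradient left out. The profile test gave 4 to 7 and 3 to 5 calls with 1 gradient left out and 6 with the block in the inhibitor contrast, and the interaction alone 0, with or without a term per gradient. The causes were not tested.

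The direction turned for some values that were not called. In the etoposide contrast, Cd86 was at -0.01 without pool LUL16 and at -0.03 to 0.20 with 1 gradient left out. In the inhibitor contrast, with 1 gradient left out, values ran from -0.13 to 0.34 for Cd40, from -0.01 to 1.26 for Icosl and from -0.12 to 0.83 for Tnfrsf13c (0.07, 0.62 and 0.39 with all gradients), and those of Icosl and Tnfrsf13c turned without LPS+ET+KU LUL16. In the combined contrast, Icosl was at -0.03 with the block, -0.34 without pool LUL16 and -0.46 to 0.36 with 1 gradient left out. Apart from the calls named here and in the results, the replicate block changed no call of the set between treatments. Over all genes, calls in ribosome-associated mRNA numbered 1618, 58 and 1361 in the 3 contrasts, compared with 3403, 811 and 3589 with the block and 2391, 412 and 2263 by DESeq2. Low depth limits Cd80 in LPS and Tnfrsf17 most.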

Other observations

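The single library of fraction 17, from the LPS gradient of pool LUL16, held 777 counts. Each of the 9 genes was at 0 in it, which allows up to 3 counts of 777.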
